A study of Homo sapiens with 9 samples.

Results

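Of the 41857 gene IDs in each library, 9 were the tight junction genes described here. They were chosen by name, with earlier results of these data known, and found by mapping Ensembl IDs to symbols. Shares of all genes stand beside their counts as a reference and are not a test of the set. They encode the claudins CLDN1, CLDN4, CLDN7 and CLDN12, the MARVEL-domain membrane proteins occludin (OCLN) and tricellulin (MARVELD2), the adhesion molecule JAM-A (F11R), and the scaffold proteins ZO-1 (TJP1) and ZO-3 (TJP3). All 9 passed the filter on low values, which asked for 10 or more in 3 or more of the 9 libraries. TJP3 passed it only through the deltaNp63beta group, with 3 of 3 libraries there, 1 of 3 with vector and 1 of 3 with deltaNp63alpha.

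Poly(A) RNA was sequenced from MCF10A, an established line of human breast epithelial cells that does not form tumours, labelled as wild type, which carried empty vector, deltaNp63alpha or deltaNp63beta, with 3 biological replicates of each. The 2 transgenes are isoforms of the transcription factor p63 that lack the N-terminal transactivation domain and differ at the C terminus. Cells of all 3 groups, the vector controls included, had received 500 ng/mL doxycycline for 24 h, and they grew with horse serum, epidermal growth factor, hydrocortisone, cholera toxin and insulin. The labels do not say whether each construct was studied in 1 clone or in a pool of cells, nor how the transgene is driven. No group without doxycycline was analysed here.

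Tight junctions are belts of membrane strands near the apical edge of epithelial cells that seal the space between neighbours. Claudins polymerize into the strands and set which ions and solutes pass. Occludin joins the strands where cells meet in pairs and tricellulin where 3 cells meet, JAM-A helps to place the junction and polarity proteins, and the ZO scaffolds tie the membrane proteins to actin. In the mammary gland they close the milk space of the luminal layer, while the basal layer, where p63 is found, lies below them.

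With deltaNp63beta, 7 of the 9 genes rose over vector, where 21.8% of all genes tested were called higher, 19.5% lower and 41.3% either way. The rises went from 2.02-fold (1.81 to 2.25) for F11R to 13.6-fold (11.6 to 15.9) for CLDN1, with 95% intervals in parentheses. With deltaNp63alpha, 3 of the 9 rose, MARVELD2, F11R and CLDN7, against 8.13% of all genes higher, 6.37% lower and 14.5% either way. CLDN7 rose 1.34-fold (1.13 to 1.58), F11R 1.74-fold (1.56 to 1.94) and MARVELD2 1.91-fold. Between the isoforms the same 7 genes that rose over vector with deltaNp63beta were higher with deltaNp63beta, against 17.4% of all genes higher, 15.5% lower and 32.9% either way. CLDN12 and TJP1 passed the test in no comparison. In limma 0 of the 9 fell in any comparison. At an unadjusted p under 0.05, 0 were lower with either isoform than with vector, and 2 (CLDN12 and TJP1) were lower with deltaNp63beta than with deltaNp63alpha. Levels are normalized estimated counts, given for a group as its mean ± SD (n = 3). Changes are differences of log2(value + 1) ± SE, with Benjamini-Hochberg adjusted p from limma, called under 0.05. In bulk RNA, fewer cells expressing a gene and less RNA per cell cannot be told apart, and the p-values measure only the spread between these libraries.

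Because 5 members, CLDN1, CLDN4, CLDN7, OCLN and TJP3, moved most with deltaNp63beta, the 250 bases upstream of a RefSeq start of each are shown. The sequences can thus be read beside the values. They come from RefSeq (GRCh38.p14), run 5′ to 3′ on the gene's strand, and end just before the first base of the transcript. Capitals mark the E-box CAGGTG or its reverse complement CACCTG, the letters that SNAI and ZEB repressors are known to bind. CLDN7 is from chr17:7262479-7262728 (minus strand), OCLN from chr5:69492297-69492546 (plus), TJP3 from chr19:3721487-3721736 (plus), CLDN1 from chr3:190322447-190322696 (minus) and CLDN4 from chr7:73830746-73830995 (plus).
CLDN7: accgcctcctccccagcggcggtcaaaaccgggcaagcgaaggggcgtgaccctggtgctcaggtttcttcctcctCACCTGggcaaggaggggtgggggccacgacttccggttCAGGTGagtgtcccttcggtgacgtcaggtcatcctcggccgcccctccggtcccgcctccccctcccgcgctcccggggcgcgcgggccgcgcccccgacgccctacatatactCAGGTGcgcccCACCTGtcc
OCLN: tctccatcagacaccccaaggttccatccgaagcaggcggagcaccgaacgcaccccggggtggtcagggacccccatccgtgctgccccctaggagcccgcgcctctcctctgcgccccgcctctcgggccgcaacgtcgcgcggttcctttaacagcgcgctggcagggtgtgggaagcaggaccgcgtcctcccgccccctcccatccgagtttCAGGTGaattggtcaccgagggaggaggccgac
TJP3: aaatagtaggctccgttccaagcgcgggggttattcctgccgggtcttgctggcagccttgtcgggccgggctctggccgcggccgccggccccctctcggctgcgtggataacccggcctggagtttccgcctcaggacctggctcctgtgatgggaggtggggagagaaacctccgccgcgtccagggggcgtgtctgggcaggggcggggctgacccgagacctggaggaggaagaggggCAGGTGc
CLDN1: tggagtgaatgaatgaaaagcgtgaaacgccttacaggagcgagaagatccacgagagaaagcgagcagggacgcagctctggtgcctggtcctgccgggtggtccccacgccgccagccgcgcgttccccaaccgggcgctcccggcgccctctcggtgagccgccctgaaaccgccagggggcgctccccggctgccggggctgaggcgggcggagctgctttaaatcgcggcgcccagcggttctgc
CLDN4: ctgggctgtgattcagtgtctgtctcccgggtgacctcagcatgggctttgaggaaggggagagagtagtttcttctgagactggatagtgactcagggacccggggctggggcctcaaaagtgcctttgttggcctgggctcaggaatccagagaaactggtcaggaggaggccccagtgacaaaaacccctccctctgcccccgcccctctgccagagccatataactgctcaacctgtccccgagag

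The CLDN7 window held 4 E-boxes, which start 174, 135, 20 and 9 bases upstream of the transcript. Windows with at least 4 made up 43 of the 35114 human promoter entries, or 0.122%, and those with at least 1 made up 17.5%. The OCLN window held 1 E-box, 33 bases upstream of its RefSeq start, and the TJP3 window held 1, 7 bases upstream of its own. None stood in the CLDN1 or CLDN4 windows. Of the 9 genes 8 had an entry, with 14 entries in all, and F11R had none. At the entry nearest the principal transcript, 3 of the 8 genes held an E-box, and CLDN12, MARVELD2 and TJP1 did not. Another start of OCLN and another of TJP1 each held 1, and the remaining starts of CLDN7, TJP1 and TJP3 held 0. The grainyhead core ACCGGTT (searched with its reverse complement) was in none of these 8 windows and in 0.627% of all entries. The consensus half-site of p63, searched on both strands, was in 1 of the 8, that of TJP1, in another start of TJP1 and another of TJP3, and in 5.57% of all entries. From the start of the principal GENCODE transcript, the OCLN entry lies 255 bases downstream, that for CLDN4 3252 bases downstream and that for TJP3 6639 bases upstream. The OCLN and CLDN4 windows therefore lie wholly downstream of that start, within the gene. A match describes the letters in these windows and no binding was measured.

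Each library summed to 22.5 to 23.2 M (mega) normalized estimated counts, and the spacing of its low values gave a depth of about 20.3 to 24.4 M before normalization. TP63 was at 302 ± 38.1 with vector, 6123 ± 1469.6 with deltaNp63alpha and 5257 ± 1312 with deltaNp63beta, higher in both transgene groups than with vector, and this gene-level value does not tell the isoforms apart. A total of 15108 genes were tested. The median change over all of them was -0.01 in each comparison with vector and 0.00 between the isoforms. Sums of the 6 basal epithelial markers were between 97042 and 104903 with vector, 173332 and 182859 with deltaNp63alpha, and 291401 and 305460 with deltaNp63beta, and all 6 rose with both isoforms. Sums of the 11 luminal markers overlapped between the groups, 83561 to 85119, 84621 to 88930 and 79538 to 88969. KRT7 makes up most of that sum, and of the 11 genes 2 rose and 3 fell with deltaNp63alpha and 4 rose and 3 fell with deltaNp63beta. Over all genes tested, 8.13% were called higher and 6.37% lower with deltaNp63alpha, and 21.8% and 19.5% with deltaNp63beta. Among markers of other cell types, PTPRC, CDH5, VWF, CLDN5, ESAM, LUM, COL1A2 and COL3A1 were under 20 in every library. Others in these lists were higher, and those of the fibroblast and leukocyte lists moved both ways with deltaNp63beta. Means are given here in the order vector, deltaNp63alpha and deltaNp63beta. FBLN1, most of the fibroblast sum, was at 9233, 7224 and 12426, and DCN at 1210.5, 350 and 166. Among leukocyte markers, CD68 was at 1111, 842 and 611, ITGB2 at 543, 286 and 148, and CD14 at 23.6, 19.1 and 170. The endothelial markers PECAM1 (68.2, 31.4 and 30.1), KDR (123, 112 and 79.4) and TEK (37.6, 23.7 and 9.75) went down. Of these 3, 1 was called lower with deltaNp63alpha and 3 with deltaNp63beta, and 0 were called higher. The summed fibroblast (8 genes), endothelial (7) and leukocyte (6) lists had ranges of 10602 to 10943, 205 to 280.2 and 1871 to 2086 with vector. They were 7787 to 7915, 175 to 177 and 1281 to 1641 with deltaNp63alpha, and 12496 to 13572, 111 to 146 and 1241 to 1369 with deltaNp63beta. The part of these shifts in the junction gene results was not tested.

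**Figure D1:**
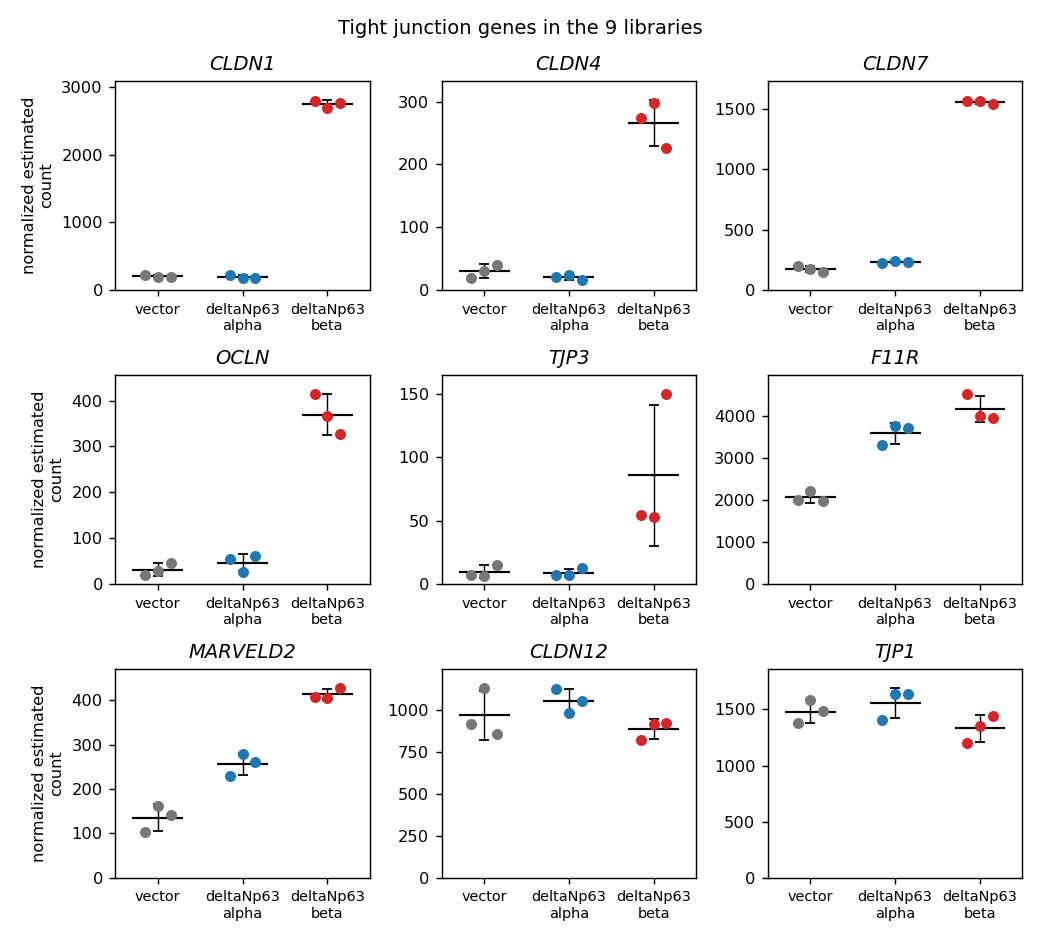
Normalized estimated counts (vertical axis, linear, from 0) of the 9 tight junction genes in each library (points), by group, with the group mean (long bar) and SD (whiskers, n = 3). The deltaNp63beta points stand apart from both other groups for CLDN1, CLDN4, CLDN7, OCLN, TJP3 and MARVELD2. For F11R they also lie above both, with a small gap to deltaNp63alpha, whereas the vector points of CLDN12 and TJP1 overlap those of both isoforms.

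Among the claudins, CLDN1, the claudin without which the epidermal water barrier fails in mice (chr3:190305701-190322475, minus strand), rose most. Its libraries read 218, 201 and 187 with vector, 220.2, 173 and 177 with deltaNp63alpha and 2796, 2690.1 and 2771 with deltaNp63beta. The deltaNp63beta libraries were all far above the other 6, and the vector and deltaNp63alpha libraries overlapped. The mean with deltaNp63beta was 2752 ± 55.2 against 202 ± 15.5 with vector, a log2 change of 3.76 ± 0.10 (limma adjusted p = 5.01e-10), or 13.6-fold (11.6 to 15.9) with its 95% interval. From the largest rise downward it ranked 37th of the 15108 genes. With deltaNp63alpha the change was -0.09 ± 0.10 (limma adjusted p = 0.628) with a 95% interval of -0.32 to 0.14.

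CLDN4, a claudin that tightens epithelia against sodium (chr7:73799542-73832693, plus strand), was low without deltaNp63beta. Its libraries read 18.6, 29.9 and 40.7 with vector, 21.3, 23.8 and 16.6 with deltaNp63alpha and 274, 298 and 226 with deltaNp63beta. All 3 deltaNp63beta libraries were far above every other library, and the vector and deltaNp63alpha libraries overlapped. The log2 change with deltaNp63beta was 3.18 ± 0.28 against vector (limma adjusted p = 5.72e-06) and 3.64 ± 0.28 against deltaNp63alpha (limma adjusted p = 3.54e-06). With deltaNp63alpha it was -0.46 ± 0.28 (limma adjusted p = 0.342), and the 95% interval, -1.09 to 0.17, includes a fall as well as a rise.

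CLDN7, a claudin of lateral membranes that binds EPCAM (chr17:7259903-7263983, minus strand), rose with both isoforms. Its libraries read 202, 172 and 148 with vector, 222, 237 and 236 with deltaNp63alpha and 1562, 1569 and 1537 with deltaNp63beta. The 3 groups did not overlap, and the gap between vector and deltaNp63alpha was small. The log2 change with deltaNp63beta was 3.16 ± 0.11 against vector (limma adjusted p = 2.93e-09) and 2.74 ± 0.11 against deltaNp63alpha (limma adjusted p = 2.1e-08). With deltaNp63alpha it was 0.42 ± 0.11 (limma adjusted p = 0.0244), which did not pass without vector replicate 2 (0.0622) or 3 (0.0749), or without deltaNp63alpha replicate 2 (0.0725) or 3 (0.0714). ELP5, which overlaps CLDN7 on the opposite strand, went the other way, with means of 510.1, 430 and 299 in the order vector, deltaNp63alpha and deltaNp63beta. Whether the counting used strand is not given in the sources used here.

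CLDN12, a claudin without the PDZ-binding tail by which the others hold the ZO scaffolds (chr7:90383721-90513402, plus strand), passed the test in no comparison. Its libraries read 916, 1136 and 861 with vector, 1129, 986 and 1059 with deltaNp63alpha and 821, 919 and 927 with deltaNp63beta. The vector libraries spanned nearly the whole range, and each deltaNp63beta library was below each deltaNp63alpha library. The log2 change was 0.13 ± 0.10 with deltaNp63alpha (limma adjusted p = 0.457, 95% interval -0.09 to 0.35) and -0.12 ± 0.10 with deltaNp63beta (limma adjusted p = 0.382, -0.34 to 0.10). Between the isoforms it was -0.25 ± 0.10 (limma adjusted p = 0.0825), and this passed as lower in deltaNp63beta without vector replicate 2 (0.0305). CLDN12 overlaps GTPBP10 and CDK14 on its own strand, so reads in shared stretches may be divided among them.

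Occludin and tricellulin both rose with deltaNp63beta, and tricellulin also with deltaNp63alpha. OCLN (chr5:69492292-69558104, plus strand) read 18.4, 27.5 and 46.1 with vector, 53.3, 26.1 and 59.9 with deltaNp63alpha and 415, 367 and 327 with deltaNp63beta. All 3 deltaNp63beta libraries were far above the other 6, and those 6 overlapped between their groups. The log2 change with deltaNp63beta was 3.64 ± 0.35 (limma adjusted p = 1.05e-05), or 12.4-fold (7.27 to 21.3) with its 95% interval, and from the largest rise downward the gene ranked 49th of 15108. With deltaNp63alpha it was 0.59 ± 0.35 (limma adjusted p = 0.319), with an interval of -0.18 to 1.37 that includes both a fall and a rise. The partial copy OCLNP1 was listed at 0 in all 9 libraries.

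MARVELD2 (chr5:69415065-69444330, plus strand) read 103, 162 and 142 with vector, 229, 279 and 261 with deltaNp63alpha and 406, 406 and 428 with deltaNp63beta. The 3 groups did not overlap, and deltaNp63alpha lay between the other 2. The log2 change was 0.94 ± 0.16 with deltaNp63alpha (limma adjusted p = 0.0021), 1.63 ± 0.16 with deltaNp63beta (limma adjusted p = 1.04e-05) and 0.69 ± 0.16 between the isoforms (limma adjusted p = 0.00596).

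F11R, whose product JAM-A is an immunoglobulin-type adhesion molecule (chr1:160995211-161021348, minus strand), rose with each isoform. Its libraries read 1986, 2209 and 1982 with vector, 3294, 3753 and 3702 with deltaNp63alpha and 4520.1, 4003 and 3949 with deltaNp63beta. Every transgene library was above every vector library. The log2 change was 0.80 ± 0.07 with deltaNp63alpha (limma adjusted p = 1.9e-05) and 1.01 ± 0.07 with deltaNp63beta (limma adjusted p = 7.01e-07). The difference between the isoforms, 0.21 ± 0.07, passed narrowly (limma adjusted p = 0.038), and did not pass without deltaNp63alpha replicate 1 (0.136) or 3 (0.0558), or without deltaNp63beta replicate 1 (0.127) or 2 (0.053). AL591806.3, a coding gene that overlaps F11R on the same strand, had means of 496, 969 and 1505 in the same order of groups, so how reads were shared between both genes is uncertain.

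The scaffolds went apart. TJP1 (chr15:29699367-29968865, minus strand), whose product ZO-1 is the general organizer of the junction plaque, read 1377, 1581 and 1487 with vector, 1405, 1635 and 1641 with deltaNp63alpha and 1199.7, 1353 and 1440.1 with deltaNp63beta. All 3 groups overlapped. The log2 change was 0.07 ± 0.09 with deltaNp63alpha (limma adjusted p = 0.649, 95% interval -0.12 to 0.26) and -0.16 ± 0.09 with deltaNp63beta (limma adjusted p = 0.174, -0.35 to 0.03). Between the isoforms it was -0.23 ± 0.09 (limma adjusted p = 0.0628), which passed as lower in deltaNp63beta without deltaNp63alpha replicate 1 (0.0252) or deltaNp63beta replicate 3 (0.0364).

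TJP3, for ZO-3, an epithelial ZO protein (chr19:3708109-3750813, plus strand), read 7.44, 6.51 and 15.3 with vector, 6.82, 7.18 and 12.4 with deltaNp63alpha and 54.5, 52.9 and 150.1 with deltaNp63beta. The deltaNp63beta libraries were all higher than the rest, and replicate 3 was far above replicates 1 and 2. The log2 change with deltaNp63beta was 2.92 ± 0.49 (limma adjusted p = 0.000621), or 7.59-fold (3.59 to 16.0) with its 95% interval, and with deltaNp63alpha it was -0.09 ± 0.49 (limma adjusted p = 0.937, -1.17 to 0.99). TJP3 was the least abundant of the 9, and since it passed the filter through deltaNp63beta alone, its inclusion among the tested genes is tied to its level there.

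All 3 deltaNp63beta libraries lay above all 3 vector libraries for the 7 called genes and below them for 0, where 26.2% of all genes lay above, 24.4% below and 50.6% either way. All deltaNp63alpha libraries lay above all vector libraries for 3 of 9, against 16.7% of all genes above, 16.8% below and 33.5% either way. The deltaNp63beta libraries lay above those of deltaNp63alpha for 7 and below them for 1, CLDN12, against 22.9% above, 21.9% below and 44.8% either way. The median log2 change over the 9 genes was 2.92 with deltaNp63beta, 0.13 with deltaNp63alpha and 2.74 between the isoforms. The value of 2.92 is that of TJP3, which is among the 7 called genes and passed the filter only through deltaNp63beta. Both comparisons with vector use the same vector libraries.

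**Figure D2:**
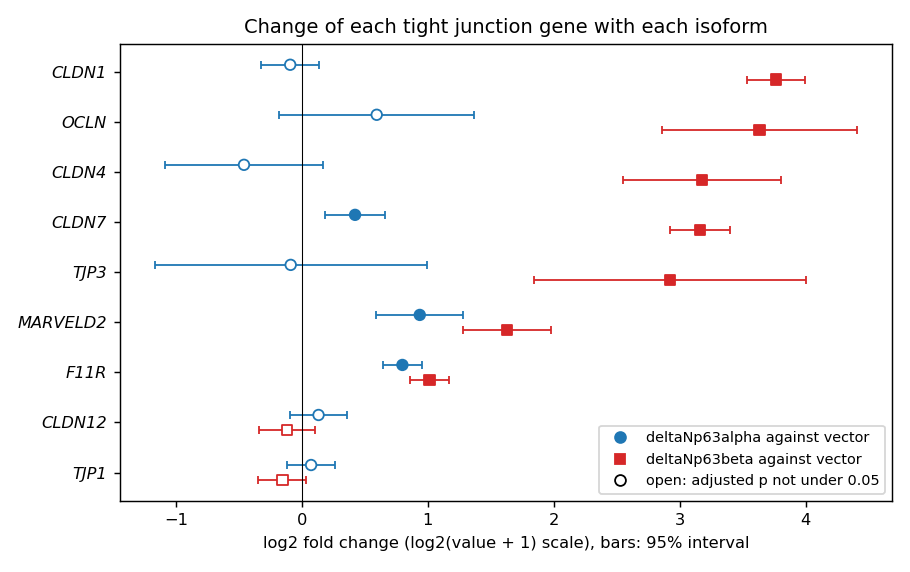
Log2 fold changes (horizontal axis) of the 9 tight junction genes with deltaNp63alpha (circles) and deltaNp63beta (squares) against vector, with 95% intervals from limma (bars). Filled points passed an adjusted p under 0.05; with deltaNp63beta 7 of 9 lie to the right of 0, while CLDN12 and TJP1 have intervals that include 0 in both comparisons with vector.

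Levels can be compared between genes only per length, here per kilobase of the mean basic coding transcript in GENCODE release 29. With vector, F11R led at 569 per kilobase, followed by CLDN12 at 275 and TJP1 at 245, whose libraries overlapped, then CLDN7 at 128, CLDN1 at 58.0 and MARVELD2 at 42.1. CLDN4 (8.83), OCLN (6.78) and TJP3 (3.18) came last, each overlapping its neighbour in that order. With deltaNp63alpha the order was the same except that MARVELD2 (79.7) passed CLDN1 (54.6), and OCLN (10.3) and CLDN4 (6.10) exchanged places while overlapping. With deltaNp63beta, F11R at 1149 and CLDN7 at 1147 overlapped at the top, and CLDN1 followed at 791. CLDN12 (252) and TJP1 (220) overlapped next, ahead of MARVELD2 (129), OCLN (81.7) and CLDN4 (79.0), which overlapped, and TJP3 was last.

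The make-up of the 4 claudins differed with deltaNp63beta. Vector libraries had 471 ± 48.6 per kilobase over the 4 genes, deltaNp63alpha libraries 532 ± 21.1 and deltaNp63beta libraries 2269 ± 9.62. CLDN12 made up 58.4 ± 3.99% of that sum with vector and 56.4 ± 1.59% with deltaNp63alpha, but 11.1 ± 0.747% with deltaNp63beta. CLDN7 made up 27.3 ± 3.47%, 32.2 ± 2.37% and 50.6 ± 0.349%, and CLDN1 12.4 ± 1.05%, 10.2 ± 1.02% and 34.9 ± 0.813%, in the same order. CLDN4 stayed the smallest share in all 3 groups, at 1.92% with vector and 3.48% with deltaNp63beta. The level of CLDN12 itself had no called change. Lengths were averaged over transcripts, so the shares rest on that choice.

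**Figure D3:**
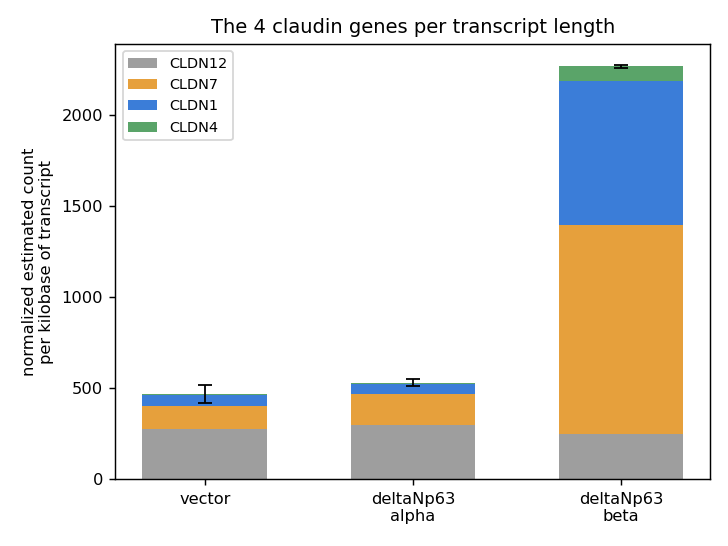
Normalized estimated counts per kilobase of transcript (vertical axis) of the 4 claudin genes, as stacked bars from 0 by group. Each segment is a gene's mean and the whiskers are the SD of the sum over n = 3 libraries. CLDN12 is the largest segment with vector and deltaNp63alpha, and with deltaNp63beta the CLDN7 and CLDN1 segments are larger.

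The genes nearest in pattern were found by the root mean square difference of log2(value + 1) over the 9 libraries. Each gene was centred on its vector mean. The search covered 10627 genes with a symbol and a mean of at least 100 over the 9 libraries. S100P, EHF, MMP28, OASL and MAPK4 had vector and deltaNp63alpha means under 100, so they entered it only through their deltaNp63beta levels. Nearest to CLDN1 were S100P (0.22) and RHOV (0.26), to CLDN4 KRT16 (0.33) and RHOV (0.35), and to CLDN7 SLPI (0.24) and EPCAM (0.28). OCLN lay nearest to EHF (0.40) and MMP28 (0.41), and TJP3 to OASL (0.63) and MAPK4 (0.69). F11R lay nearest to GSDME (0.09) and DAPP1 (0.09), and MARVELD2 to TAGLN (0.14) and NECTIN1 (0.19). Among the members themselves, CLDN12 and TJP1 were closest (0.13), then F11R and MARVELD2 (0.39) and CLDN1 and CLDN7 (0.47). These distances describe the patterns and carry no test.

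Of 19 other claudins, 4 were listed at 0 in every library and 2 passed the filter, CLDN15 and CLDN23. CLDN23 read 17.2 ± 11.5 with vector, 24.0 ± 5.57 with deltaNp63alpha and 70.8 ± 7.58 with deltaNp63beta, a log2 change with deltaNp63beta of 2.22 ± 0.47 (limma adjusted p = 0.00298). CLDN15 passed no test, with -0.26 and -0.56 for deltaNp63alpha and deltaNp63beta.

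Of 9 other tight junction membrane genes tested, 4 rose with deltaNp63alpha and 4 with deltaNp63beta, and in limma 0 fell in either (0 and 2 at an unadjusted p under 0.05). Over all genes tested, 8.13% were called higher and 6.37% lower with deltaNp63alpha, and 21.8% higher and 19.5% lower with deltaNp63beta. The median over the 9 was 0.57 with deltaNp63alpha and 0.64 with deltaNp63beta. The same 4 genes rose with both: MARVELD3, a relative of occludin, CRB3, the crumbs polarity protein, CXADR, the coxsackievirus and adenovirus receptor, and LSR, which recruits tricellulin. Their log2 changes were 1.73 and 2.85 for MARVELD3, 1.75 and 2.59 for CRB3, 1.22 and 2.20 for CXADR, and 0.57 and 1.01 for LSR, with deltaNp63alpha first. MARVELD3, for one, went from 62.2 ± 15.5 with vector to 205 ± 31.2 and 446 ± 53.7. All 4 were also higher with deltaNp63beta than with deltaNp63alpha, against 17.4% of all genes higher and 15.5% lower. JAM3 was lower in that comparison (-0.91 ± 0.24, limma adjusted p = 0.0138), but not without deltaNp63alpha replicate 1 or deltaNp63beta replicate 3 (up to 0.0552).

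Of 13 other plaque genes tested, 3 rose with deltaNp63alpha and in limma 0 fell (1 at an unadjusted p under 0.05), and 5 rose and 3 fell with deltaNp63beta, with medians of 0.11 and 0.10. The shares of all genes called higher and lower were 8.13% and 6.37% with deltaNp63alpha and 21.8% and 19.5% with deltaNp63beta, so the 3 of 13 that fell with deltaNp63beta are near that background. YBX3, a Y-box protein that ZO-1 binds, changed by 0.18 with deltaNp63alpha and 0.64 with deltaNp63beta, AMOTL1, an angiomotin, by 0.56 and 0.42, and PATJ, a crumbs complex scaffold, by 0.49 and 0.87. The PATJ call with deltaNp63alpha was lost without vector replicate 3 or deltaNp63alpha replicate 1 or 2 (limma adjusted p up to 0.0733). AFDN, which links nectins to actin, rose with deltaNp63beta by 0.50. So did cingulin (CGN, named after its value was seen), by 2.09 ± 0.39, from 22.2 ± 10.1 to 93.0 ± 29.7. The 3 that fell with deltaNp63beta were AMOTL2 (-0.37), the vesicle GTPase RAB13 (-0.22) and MPDZ (-0.24), the last of which did not pass without each of 5 libraries in turn (limma adjusted p up to 0.127).

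**Figure D4:**
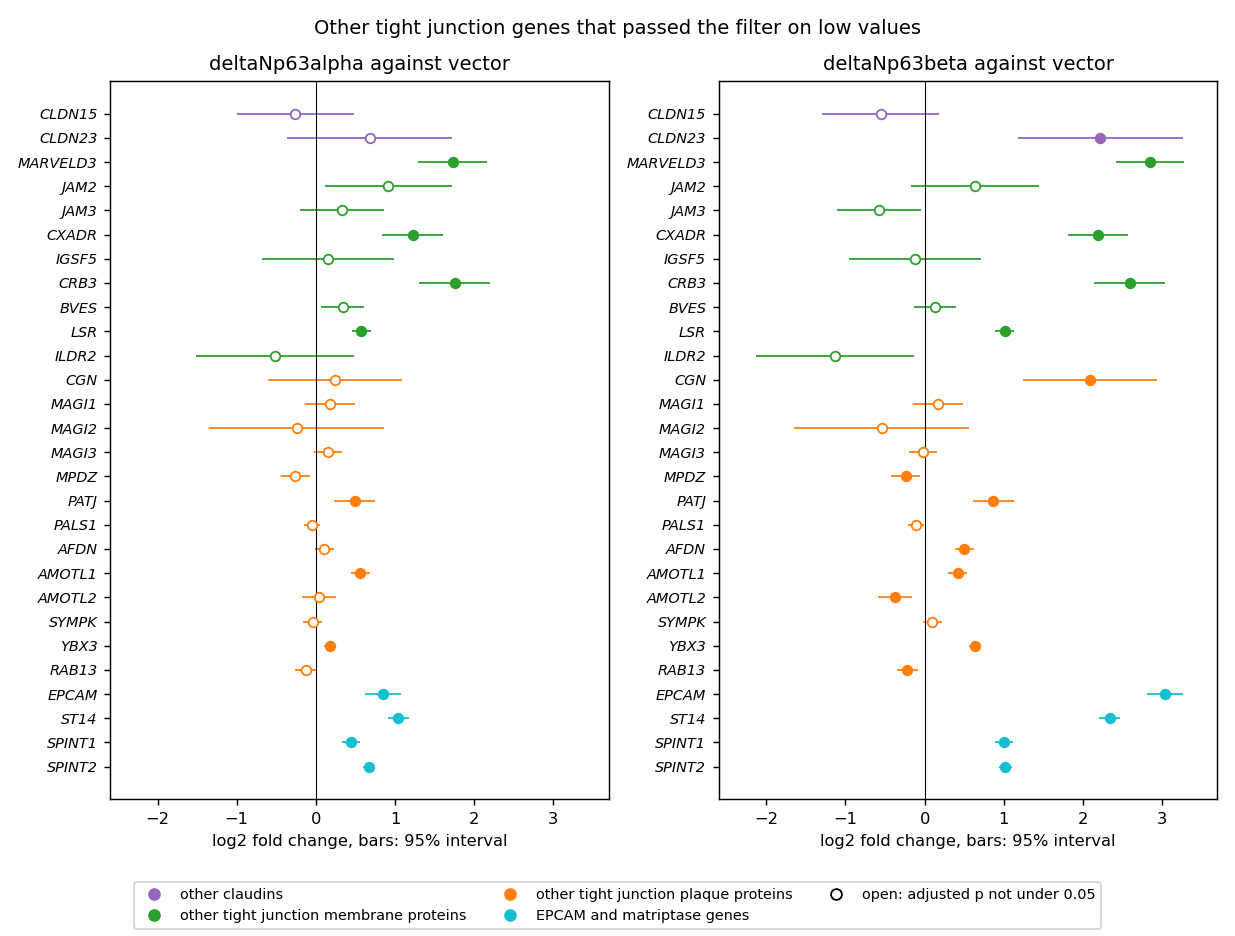
Log2 fold changes against vector with deltaNp63alpha (left) and deltaNp63beta (right) of other tight junction genes and of EPCAM and the matriptase genes, with 95% intervals (bars) and filled points where the adjusted p was under 0.05. The 4 EPCAM and matriptase genes are filled in both panels, and MARVELD3, CRB3, CXADR and LSR likewise.

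EPCAM binds and stabilizes CLDN1 and CLDN7 in the membrane, the protease matriptase (ST14) cleaves it, and SPINT1 and SPINT2 inhibit matriptase. All 4 genes rose with each isoform, and all 4 were higher with deltaNp63beta than with deltaNp63alpha, and the list medians against vector were 0.76 and 1.68. In the same comparisons 8.13%, 21.8% and 17.4% of all genes were called higher. EPCAM went from 173 ± 15.8 with vector to 311 ± 33.3 and 1424 ± 78.2, with log2 changes of 0.84 ± 0.10 and 3.04 ± 0.10 (limma adjusted p = 0.00023 and 2.91e-09). ST14 changed by 1.04 with deltaNp63alpha and 2.34 with deltaNp63beta, SPINT1 by 0.44 and 1.00, and SPINT2 by 0.67 and 1.02.

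Of 24 polarity and junctional actomyosin genes, 6 rose and 1 fell with deltaNp63alpha, and 7 rose and 7 fell with deltaNp63beta, with medians of 0.05 and -0.06. Over all genes tested, 8.13% were called higher, 6.37% lower and 14.5% either way with deltaNp63alpha. With deltaNp63beta these shares were 21.8%, 19.5% and 41.3%. Each direction taken alone, the 7 of 24 with deltaNp63beta are not far from the background, and 10 of the 24 were called in neither direction. LLGL2, a basolateral polarity protein, changed by 0.61 with deltaNp63alpha and 2.07 with deltaNp63beta, DLG1 of the scribble complex by 0.31 and 0.43, and PARD6G, a PAR complex scaffold, by 0.90 and 0.59. MYH9, the non-muscle myosin heavy chain, rose by 0.33 with deltaNp63alpha and fell with deltaNp63beta (-0.25, limma adjusted p = 0.000423 and 0.000859). PARD6A was the 1 that fell with deltaNp63alpha (-1.19, limma adjusted p = 0.0141), a call that did not pass without deltaNp63alpha replicate 2 (0.0508). The kinase PRKCI rose by 0.22 with deltaNp63alpha and 0.37 with deltaNp63beta. Its deltaNp63alpha call was lost without each of 4 libraries in turn (limma adjusted p up to 0.0925). With deltaNp63beta the myosin light chain MYL9 (0.89) rose, and the RHOA exchange factor ARHGEF18 fell (-0.45).

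Of 15 transcription and splicing factors known to act on epithelial junction genes, 3 rose and 4 fell with deltaNp63alpha, and 8 rose and 5 fell with deltaNp63beta, with medians of 0.00 and 0.53. All genes were called higher and lower at 8.13% and 6.37% with deltaNp63alpha and at 21.8% and 19.5% with deltaNp63beta. The 8 include OVOL1, a low gene that reached 10 in 0 vector, 1 deltaNp63alpha and 2 deltaNp63beta libraries and so passed the filter only through the groups with a transgene, and its call was lost without each vector library (limma adjusted p up to 0.0876). The repressors ZEB1 and ZEB2, which are known to bind E-boxes, fell with both, with log2 changes of -0.90 and -1.41 for ZEB1 and -1.22 and -2.46 for ZEB2. Their binding to the windows printed above was not measured. ZEB2 went from 454 ± 88.0 with vector to 192 ± 15.5 and 82.1 ± 18.7. The E-box repressors SNAI2 (-0.84) and SNAI1 (-1.58) fell with deltaNp63beta, and with deltaNp63alpha they were at 0.12 and -1.14 without passing (limma adjusted p = 0.232 and 0.107). TWIST2 fell with both (-0.38 and -0.56), the former call lost without each of 5 libraries in turn (limma adjusted p up to 0.112).

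GRHL3, a grainyhead factor of barrier formation, had the largest change among these 15 factors with deltaNp63beta, from 29.5 ± 8.46 with vector and 26.1 ± 3.98 with deltaNp63alpha to 749 ± 117 with deltaNp63beta (4.64 ± 0.23, limma adjusted p = 3.7e-08). GRHL2, which is known to act on CLDN4, did not pass the filter and reached 8.89 at most. ESRP1, an epithelial splicing factor, rose by 0.96 with deltaNp63alpha and 1.88 with deltaNp63beta, ESRP2 by 0.45 and 0.53, and OVOL2, a repressor of ZEB1, by 1.06 and 1.56. KLF5 rose with deltaNp63beta by 0.70. ELF3, an epithelial ETS factor, was lower with deltaNp63alpha (-1.26, limma adjusted p = 0.0264) and higher with deltaNp63beta (1.78, limma adjusted p = 0.00127), and the deltaNp63alpha call was lost without each of 4 libraries in turn (up to 0.0914). The part of these factors in the levels of the 9 genes was not tested.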

How the data were processed

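Poly(A) RNA of 9 MCF10A cultures was measured. The authors deposited 1 signal value per gene and library, a normalized estimated count, and the submitters' processing notes name kallisto 0.46.2, DESeq2 (no version) and GRCh38. The annotation, strand setting and normalizing step are not given in the sources used here. Of 41857 gene IDs, 36387 matched a symbol, and all 99 genes of the lists were matched by ID.

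Whole reads were not recovered, because only 59.9 to 63.5% of low values (up to 20 steps) were whole multiples of a library's step within 0.1 step. No count test was therefore used and no counting interval is given. The 15108 genes that reached 10 in 3 or more libraries were fitted with limma 3.58.1 (R 4.3.3) on log2(value + 1), with 1 coefficient per group, all 9 libraries, trend and robust moderation, and Benjamini-Hochberg adjustment. The pseudocount understates changes of low genes. The fit was tested on simulated data. The rest was done in Python 3.11.15 with matplotlib 3.10.9, numpy 2.4.6 and pandas 2.3.3.

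The members and lists were chosen with earlier results of these data known. Named were all members, TP63, up to 5 called genes per list and comparison with vector by smallest adjusted p, 5 or fewer that moved against their list, and 2 nearest genes per called member. Some genes that the rule allows are given only in counts, and some genes first placed in the lists are not reported here. Alternatives were other scalings, filters and pseudocounts, a replicate block, a fit of only the 2 groups compared, treat at 1.5-fold, no trend or robust moderation, and leaving out each library.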

Additional observations from a re-analysis of the deposited data

How the results depend on the processing

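All 7 members called higher with deltaNp63beta against vector stayed called in every alternative run, and no member changed direction among the calls. Against a 1.5-fold change (treat), 0 members were called higher with deltaNp63alpha and 5 between the isoforms, where F11R and MARVELD2 were not called (limma treat adjusted p = 1 for both). All genes called higher and lower then numbered 134 and 47 with deltaNp63alpha against vector, 516 and 387 with deltaNp63beta against vector, and 231 and 187 between the isoforms. Between the isoforms, members called lower with deltaNp63beta numbered 1 with equal totals, 2 with quantile normalization and 1 with only the 2 groups compared. The member was TJP1 with equal totals (limma adjusted p = 0.0449), TJP1 (0.041) and CLDN12 (0.0445) with quantile normalization, and CLDN12 (0.0387) with only the 2 groups. F11R between the isoforms was not called with equal totals (0.053), quantile normalization (0.0822) or without trend and robust moderation (0.0964), and CLDN7 with deltaNp63alpha was not called with only the 2 groups (0.0765), where TJP3 did not enter and 8 members were tested. The causes were not tested. Equal totals shifted the median of all genes by less than 0.1.

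Leaving out each library, members called higher numbered 2 to 3 with deltaNp63alpha against vector, 7 in every case with deltaNp63beta against vector, and 6 to 7 between the isoforms, and members called lower numbered 0, 0 and 0 to 1. All genes called higher and lower numbered 920 to 1239 and 640 to 1022 with deltaNp63alpha, 2813 to 3268 and 2437 to 2872 with deltaNp63beta, and 2067 to 2546 and 1800 to 2270 between the isoforms. The lower count with deltaNp63alpha, 963 with all libraries, was 641 without vector replicate 2 and 640 without vector replicate 3. Each fit without a library keeps at least 2 libraries in every group.

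Libraries that share a replicate number were not paired by it. The correlation of their residuals ran from -0.12 to 0.08, that of other pairs from -0.14 to 0.12, and for 2 of the 9 libraries the closest other library had its own number. With the number as a block, 3 and 7 members were called higher against vector with deltaNp63alpha and deltaNp63beta, and 6 higher and 1 lower between the isoforms. There F11R was not called (limma adjusted p = 0.0594) and TJP1 was called lower (0.0158).

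The members with the lowest values, TJP3, CLDN4 and OCLN, have the widest intervals.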
